A study of Mus musculus with 16 samples.

Results

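The motile cilia genes described here are 32 genes whose products build, move or mark the cilia of ependymal cells, among 34606 gene names on the array. They were chosen by name: a probe belonged to the set when the gene name on the array, or an older alias of it, was one of the 32. All 32 were present. The list was proposed with results of this experiment in view, and 2 of its members, Lrrc71 and Gas2l2, were put on it because they were higher in the knockout chimeras. The differences between the groups are therefore given as a description. A further question was whether Lrrc71 and Gas2l2 followed the other cilia genes from animal to animal within groups. It was asked of the same arrays and not of independent data.

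The study measured hypothalamic total RNA of 16 mice, 8 control animals and 8 treated KO chimeras, on 1-colour Agilent arrays, and asked what loss of adrenergic drive to marrow-derived cells does in several tissues. KO chimeras were C57BL/6J mice, lethally irradiated with 950 Rad, that had received whole bone marrow from Adrb1tm1BkkAdrb2tm1Bkk/J donors, which lack the beta-1 and beta-2 adrenergic receptors. The marrow was given by 1 retro-orbital injection, the labels state a ratio of 1:4 of knockout to C57BL/6J, and recovery took 2 to 3 months. The control samples are labelled as control mice of the same irradiated C57BL/6J strain with no donor strain, and the text on treatment is the same for all 16, so the labels used here do not settle whether the controls were irradiated or transplanted. Sex and age are not given, the deletion is in the donor marrow and not in the brain of the host, and each array holds 1 animal.

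Ependymal cells line the brain ventricles, and most of them carry tufts of motile cilia that move cerebrospinal fluid; around the third ventricle they border the hypothalamus together with tanycytes, which have few or no motile cilia. A motile cilium is built on a ring of doublet microtubules around a central pair: dynein arms on the doublets produce the sliding force, nexin links and radial spokes turn it into bending, and the basal body anchors the structure. The transcription factor Foxj1 and the RFX factors, which bind the X-box, are the best known regulators of this programme.

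Each array held 59305 spots other than controls, of which between 27276 and 43248 were well above background. A level below is the log2 processed signal of a probe minus the 75th percentile of its array, so 0 is the 75th percentile and the levels of different probes are not compared with each other. Of the 32 genes, 31 had a probe well above background on 8 or more arrays, and for 26 that probe was so on all 16. Spag17, a protein of the central pair, was the exception: 1 of its 2 probes was well above background on 1 KO chimera array and 0 control arrays, the other on 0 of 16, so no level is given. The arrays sat on 6 slides, 5 of which held both groups, and each of the 2 scan days took 4 controls and 4 KO chimeras. In the same libraries 19 of 20 genes of hypothalamic neurons were measured. The level of Prkcd, a thalamic marker, was lower in KO chimeras by 1.87 ± 0.49 (SE, n = 8 and 8, limma adjusted p = 0.0430). Of 14 oligodendrocyte genes 5 fell, where 2.77% of all genes tested were called lower.

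RefSeq promoters of build GRCm38.p6 were at hand for 28 of the 32 genes, and because many of these genes moved together the 250 bases before each start were read for 2 motifs, on both strands. The X-box was searched as GTNNCC and GNAAC with 2, 3 or 4 bases between them, and it was present in 8 of the 28 genes (28.6%) against 4.21% of 27025 genes with a promoter, a gene with several starts counting once. The forkhead motif TGTTTAC was present in 2 of the 28 (7.14%) against 3.54% of all genes. The 6 stretches below show X-box promoters of Dynlrb2, Enkur and Spag16, the forkhead promoter of Mlf1, and the promoters of Lrrc71 and Gas2l2, in which neither motif was found; capitals mark the motif.
Dynlrb2 (chr8:116504765-116505014, plus strand): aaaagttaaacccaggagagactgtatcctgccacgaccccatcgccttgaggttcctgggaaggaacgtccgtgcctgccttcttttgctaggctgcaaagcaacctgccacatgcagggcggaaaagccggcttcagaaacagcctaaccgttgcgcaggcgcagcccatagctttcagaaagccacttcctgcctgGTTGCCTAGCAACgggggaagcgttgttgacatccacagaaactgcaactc
Enkur (chr2:21205366-21205615, minus strand): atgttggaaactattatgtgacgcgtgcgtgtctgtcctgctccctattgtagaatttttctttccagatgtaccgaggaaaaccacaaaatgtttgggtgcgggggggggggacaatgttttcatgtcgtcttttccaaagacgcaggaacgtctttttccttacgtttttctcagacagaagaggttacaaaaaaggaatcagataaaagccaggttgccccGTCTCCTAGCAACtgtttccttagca
Spag16 (chr1:69826720-69826969, plus strand): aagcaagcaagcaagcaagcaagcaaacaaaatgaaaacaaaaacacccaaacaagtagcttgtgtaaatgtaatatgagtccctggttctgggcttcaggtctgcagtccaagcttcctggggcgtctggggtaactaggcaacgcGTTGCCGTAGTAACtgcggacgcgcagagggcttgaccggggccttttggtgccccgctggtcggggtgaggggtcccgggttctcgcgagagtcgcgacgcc
Mlf1 (chr3:67373847-67374096, plus strand): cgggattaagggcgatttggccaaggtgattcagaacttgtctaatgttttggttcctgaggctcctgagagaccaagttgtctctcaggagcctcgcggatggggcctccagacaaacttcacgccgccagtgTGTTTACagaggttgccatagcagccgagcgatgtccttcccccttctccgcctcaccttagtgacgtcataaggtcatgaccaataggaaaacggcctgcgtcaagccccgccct
Lrrc71 (chr3:87748624-87748873, minus strand): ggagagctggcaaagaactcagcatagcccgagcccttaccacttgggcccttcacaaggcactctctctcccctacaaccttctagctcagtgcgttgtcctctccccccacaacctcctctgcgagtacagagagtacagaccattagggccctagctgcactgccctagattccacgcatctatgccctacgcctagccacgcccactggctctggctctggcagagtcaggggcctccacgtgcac
Gas2l2 (chr11:83429522-83429771, minus strand): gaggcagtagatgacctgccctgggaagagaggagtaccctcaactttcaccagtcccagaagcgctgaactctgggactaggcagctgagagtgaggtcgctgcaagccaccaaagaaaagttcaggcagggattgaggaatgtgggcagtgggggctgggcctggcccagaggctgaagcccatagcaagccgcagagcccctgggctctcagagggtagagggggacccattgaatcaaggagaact
The X-box ended 38 bases before the start in Dynlrb2, 13 in Enkur and 89 in Spag16. The other genes with an X-box were Hydin, Lrriq1, Spag17, Tekt2 and Tekt4, and the other gene with the forkhead motif was Ak7. A match is only a match of letters in this window.

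Most cilia genes were somewhat higher in the KO chimeras. Of the 31 tested, 30 had the higher mean in KO chimeras and 1, Spef2, the lower, where 50% of the 24363 genes tested had the higher mean there. The median difference over the 31 genes was 0.40 on the log2 scale, a fold of 1.32, against 0.00 over all genes. In the limma fit over all genes, 5 of the 31 had an adjusted p under 0.05, all higher in KO chimeras, namely Lrrc71, Gas2l2, Ccdc40, Zmynd10 and Tekt1; the share of all genes called was 3.8%, or 1.03% called higher and 2.77% called lower. Lrrc71 and Gas2l2 were on the list because of this comparison, so they add nothing to that count. The groups overlapped for all 31 genes; 0.115% of all genes had every KO chimera above every control. Since this is bulk tissue, more ciliated cells in the dissected piece and more RNA per cell cannot be told apart.

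**Figure D1:**
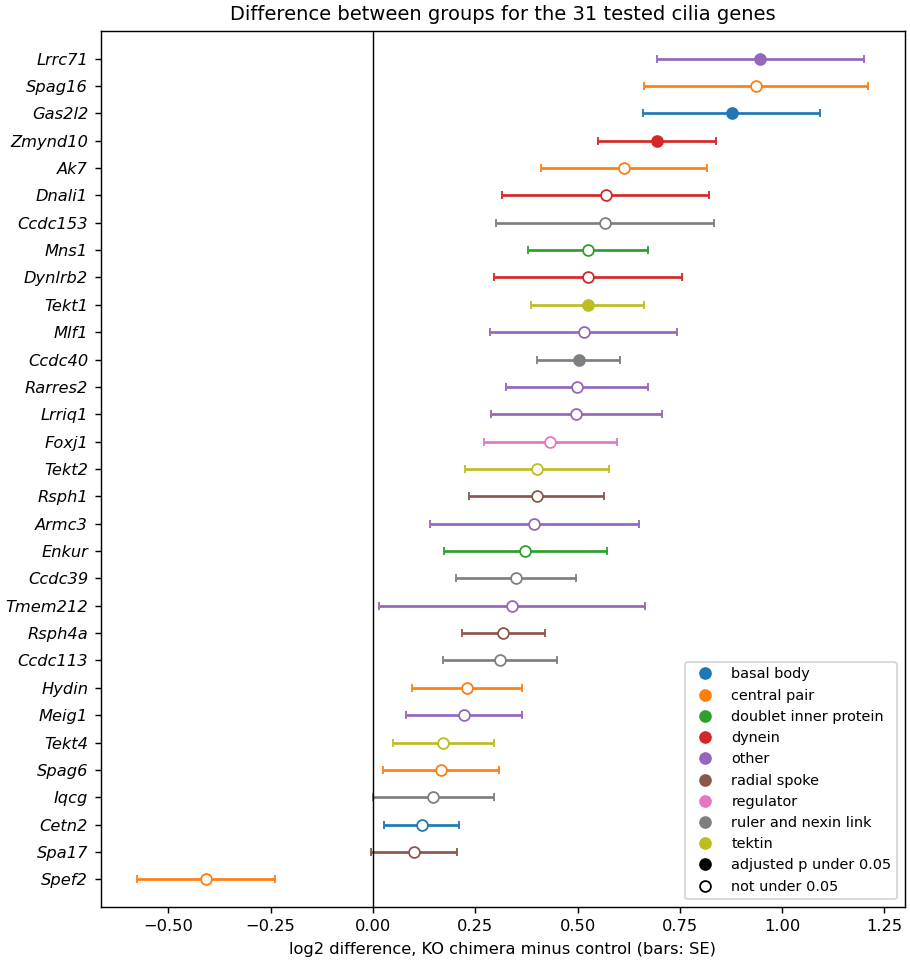
Log2 difference between 8 KO chimeras and 8 controls for the 31 tested cilia genes, coloured by the role of the product; bars are SE of the limma fit and filled points have an adjusted p under 0.05 over all genes. All but Spef2 lie to the right of 0, and the differences of the other 30 run from 0.10 (Spa17) to 0.95 (Lrrc71).

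Foxj1, the forkhead factor that switches on motile cilia genes, had control levels from -0.42 to 0.75 with a median of 0.40, and KO chimera levels from 0.41 to 1.38 with a median of 0.72. All 8 KO chimeras lay above the control median and 4 above every control, and the difference was 0.43 ± 0.16 (SE, n = 8 and 8). Its probe lies at chr11:116192214-116192273 on the minus strand (mm9, from the array annotation).

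Among parts of the dynein motors and their assembly, Zmynd10, a factor needed to assemble dynein arms in the cytoplasm, had the highest difference, 0.69 ± 0.14 (SE). Its control levels ran from -1.75 to -0.99 (median -1.21) and its KO chimera levels from -0.996 to -0.14 (median -0.70). The groups met at a single pair of animals, as 7 KO chimeras lay above every control. Dnali1, an inner arm light intermediate chain, differed by 0.57 ± 0.25 and Dynlrb2, a dynein light chain of the roadblock family, by 0.53 ± 0.23.

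Of the ruler proteins that set the repeat along the doublets, Ccdc40 was higher by 0.50 ± 0.10 (SE). Control levels of Ccdc40 lay between -1.43 and -0.89 (median -1.22) and KO chimera levels between -1.01 and -0.29 (median -0.70), with 7 KO chimeras above every control. A second Ccdc40 probe that passed the filter was well above background on only 5 control and 6 KO chimera arrays. That probe differed by 0.92, with an SD of 1.08 in controls and 0.95 in KO chimeras. Ccdc39, the partner of Ccdc40, differed by 0.35 ± 0.15, and no KO chimera lay above every control. Ccdc153, a subunit of the nexin-dynein regulatory complex and an ependymal marker, had control levels from 0.47 to 2.64 (median 2.07) and KO chimera levels from 1.86 to 3.07 (median 2.58). Control replicate 6 lay 1.24 below the next control, the groups overlapped widely, and the difference was 0.57 ± 0.27. Ccdc113, which sits beside that complex, differed by 0.31 ± 0.14 and Iqcg, another subunit, by 0.15 ± 0.15.

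For the tektins, filament proteins inside the doublets, Tekt1 was higher by 0.52 ± 0.14 (SE), Tekt2 by 0.40 ± 0.17 and Tekt4 by 0.17 ± 0.12. Tekt1 levels ran from 0.66 to 1.58 in controls (median 1.09) and from 1.41 to 2.02 in KO chimeras (median 1.53). All but 2 controls lay below every KO chimera, the exceptions being replicates 2 and 3. Mns1 and Enkur, proteins inside the doublet wall, differed by 0.53 ± 0.15 and 0.37 ± 0.20. For the radial spokes the values were 0.40 ± 0.17 for Rsph1 and 0.32 ± 0.10 for Rsph4a, both spoke head proteins, and 0.10 ± 0.10 for Spa17, whose levels were -0.59 to 0.09 in controls (median -0.37) and -0.51 to 0.05 in KO chimeras (median -0.20). The Spa17 values of the groups lay almost on top of each other.

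Among the central pair genes, Spag16 (probe at chr1:69943088-69943147, plus strand, mm9), the mouse counterpart of the Chlamydomonas central pair protein PF20, had control levels from -5.07 to -2.74 (median -3.98) and KO chimera levels from -3.50 to -2.63 (median -3.10). Its difference was 0.94 ± 0.27 (SE), but the probe was well above background on only 5 control and 7 KO chimera arrays, and the other 2 Spag16 probes that passed the filter differed by 0.02 and 0.31. Ak7, an adenylate kinase of motile cilia, differed by 0.61 ± 0.20, Hydin by 0.23 ± 0.13 and Spag6 by 0.17 ± 0.14. Another Hydin probe that passed the filter differed by 1.19, but was well above background on only 3 control and 5 KO chimera arrays. The Spag6 probe was designed on the copy now named Spag6l, whose near-identical partner could share its signal, so the gene behind that value is uncertain.

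Spef2, a central pair protein, was the gene that went the other way on the probe chosen for the fit. Its levels ran from 3.88 to 5.20 in controls (median 4.27) and from 3.64 to 4.26 in KO chimeras (median 4.04), a difference of -0.41 ± 0.17 (SE), and all 8 KO chimeras lay below the control median. The second Spef2 probe, also well above background on all 16 arrays, differed by 0.54. The first probe had r = -0.45 with the mean of the other cilia genes across animals and the second r = 0.94, so the direction for Spef2 depends on the probe and none is called.

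At the basal body, Cetn2, a centrin also used by centrosomes, had control levels from 2.74 to 3.46 (median 3.09), KO chimera levels from 3.02 to 3.51 (median 3.19) and a difference of 0.12 ± 0.09 (SE). The groups overlapped almost completely. Rarres2, which encodes the secreted chemerin, had control levels from 1.55 to 2.86 (median 2.53) and KO chimera levels from 2.57 to 3.43 (median 2.93), a difference of 0.50 ± 0.17. For Rarres2, 5 KO chimeras lay above every control. Tmem212, a membrane protein gene, had control levels from -0.93 to 1.71 (median 1.08), KO chimera levels from 0.41 to 2.02 (median 1.22) and a difference of 0.34 ± 0.33. Only 5 KO chimeras exceeded the control median of Tmem212. Mlf1, Lrriq1, Armc3 and Meig1 differed by 0.52 ± 0.23, 0.50 ± 0.21, 0.39 ± 0.26 and 0.22 ± 0.14.

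Lrrc71, which encodes a leucine-rich repeat protein (probe at chr3:87541137-87541196, minus strand, mm9), had control levels from -4.19 to -2.28 (median -3.21) and KO chimera levels from -2.79 to -1.76 (median -2.31). Of the KO chimeras 4 lay above every control, and the difference was 0.95 ± 0.25 (SE), a fold of 1.93. Gas2l2, a protein that links microtubules and actin and is found at ciliary basal bodies (probe at chr11:83235477-83235536, minus strand, mm9), had control levels from -5.19 to -3.23 (median -4.54) and KO chimera levels from -3.80 to -3.35 (median -3.55), a difference of 0.88 ± 0.22, a fold of 1.84. The groups of Gas2l2 overlapped through a single animal: control replicate 8 was the highest of all 16, and the other 7 controls lay below every KO chimera. Both signals were low, as Lrrc71 was well above background on 8 control and 7 KO chimera arrays and Gas2l2 on 6 and 7.

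**Figure D2:**
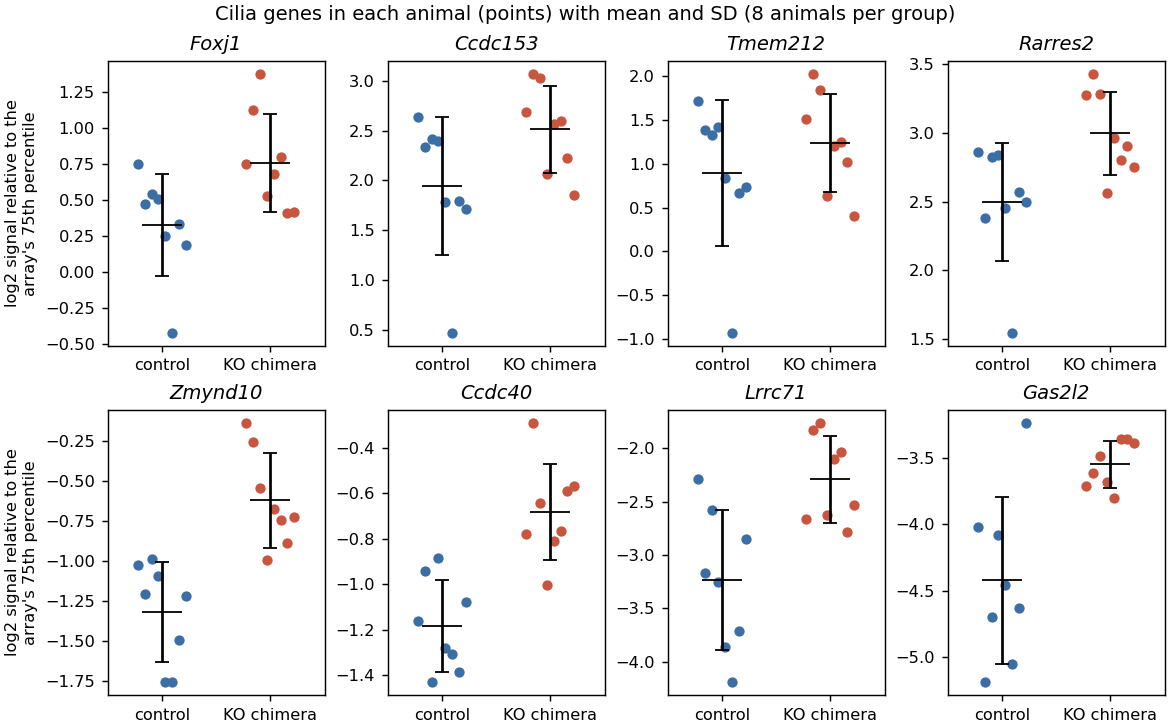
Level of 8 cilia genes in each animal (log2 signal minus the 75th percentile of its array, points) with the mean and SD of 8 animals per group. Control replicate 6 is the lowest control for Foxj1, Ccdc153, Tmem212 and Rarres2, and 1 control lies above all KO chimeras for Gas2l2.

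The cilia genes varied together between animals of the same group. To see this apart from the group difference, each gene was centred within its group, and each was set against the mean of the tested members other than Lrrc71 and Gas2l2 (29 genes; for 1 of these, the mean of the remaining ones). Of the 31 genes, 24 had a Pearson r over 0.5, 21 over 0.7 and 11 over 0.9 across the 16 animals; over all genes tested the shares were 7.52%, 1.65% and 0.328%. Among the 406 pairs of the 29 genes the median r was 0.59 and 60.6% lay over 0.5. Without control replicate 6, the lowest animal for many of them, 26 of the 31 had r over 0.5 and the median pair had r = 0.60. These r values are descriptions, as all genes of an animal share its array.

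The genes most tied to the rest were Dynlrb2 (r = 0.97), Rsph1 (0.97), Mns1 (0.97), Armc3 (0.96) and Ccdc153 (0.94), with Foxj1 at 0.91. Ccdc40, although among the called genes, followed less (r = 0.37), as did Lrriq1 (0.29), Tekt2 (0.43) and Hydin (0.49), and Iqcg did not follow (-0.17). For Hydin the tested probe and another that passed the filter gave r = 0.49 and 0.88. That other probe was well above background on only 3 control and 5 KO chimera arrays. The lowest control was replicate 6 for 16 of the 31 genes and replicate 5 for 9, and the highest KO chimera was replicate 2 for 17 genes and replicate 3 for 8.

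**Figure D3:**
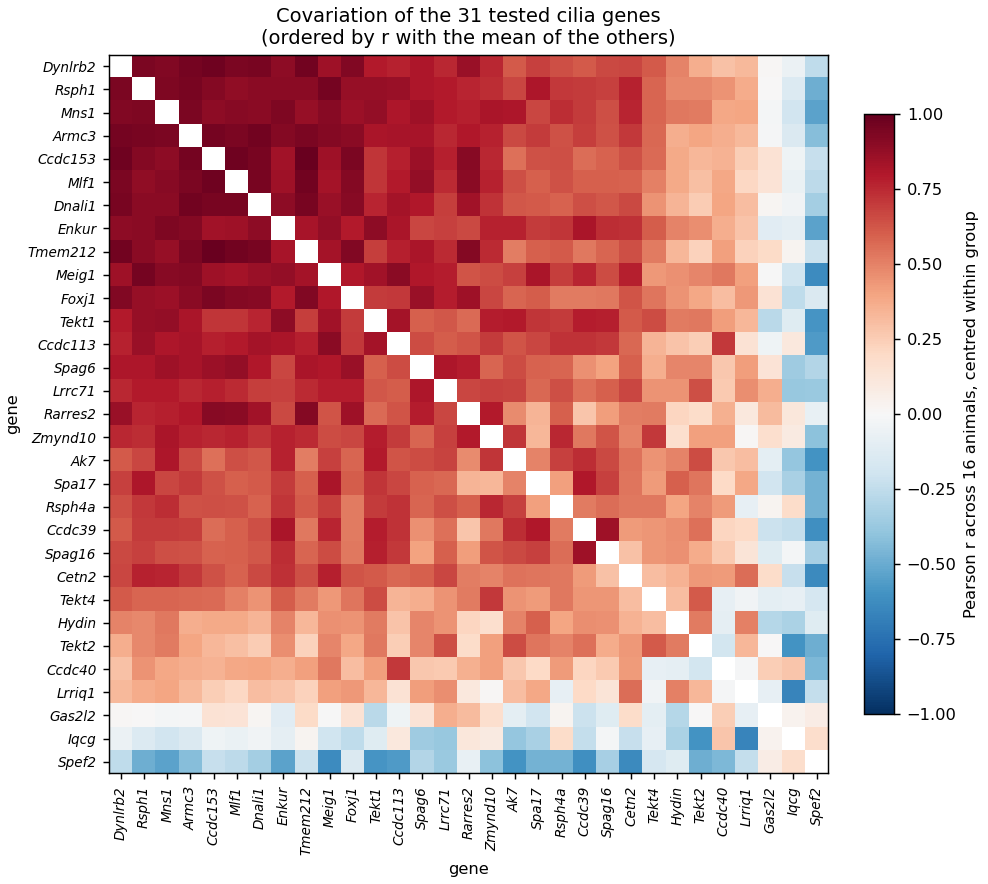
Pearson r between each pair of the 31 tested cilia genes across 16 animals, after centring within each group; genes are ordered by their r with the mean of the others. A block of high r spans the upper left, and the rows of Gas2l2, Iqcg and Spef2 stay pale or blue.

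The mean of the 29 genes, expressed around 0 over all animals, was -0.19 ± 0.32 (SD, n = 8) in controls and 0.19 ± 0.23 (SD, n = 8) in KO chimeras. It ran from -0.73 to 0.16 in controls and from -0.13 to 0.56 in KO chimeras, so 4 KO chimeras lay above every control and the groups overlapped. The difference of 0.38 compared with 0.15, 0.50, 0.57, 0.48 and 0.18 within the 5 slides that held both groups and with 0.35 and 0.41 within the scan days. Within its group this mean had r = -0.56 with the array's 75th percentile, the brightness of the array. With that brightness as a covariate the median difference of the cilia genes was 0.39.

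Lrrc71 followed the other cilia genes. Centred within group, it had r = 0.81 with their mean, above 99.2% of all genes, and its median r with the single genes was 0.67, positive for 27 of 29. It was also set against 4 single genes, and p-values were adjusted over the 8 pairs that these make with Lrrc71 and Gas2l2. With Foxj1 it had r = 0.79 and rho = 0.74 (permutation p = 0.00019 and 0.00141 within groups, two-sided, adjusted 0.00152 and 0.00764; n = 16), and r was 0.70 without the 2 animals farthest in Foxj1. With Ccdc153, Tmem212 and Rsph1 r was 0.78, 0.74 and 0.79 (permutation p = 0.0009, 0.00133 and 0.00164, each adjusted to 0.00328), rho was 0.75, 0.73 and 0.74, and r without the 2 farthest animals was 0.72, 0.57 and 0.64. For Foxj1, r was 0.78 in controls alone and 0.85 in KO chimeras alone (exact permutation p, adjusted, 0.0381 and 0.0375). For Ccdc153, Tmem212 and Rsph1 it was 0.78, 0.77 and 0.80 in controls (adjusted 0.0381, 0.0381 and 0.0514). In KO chimeras it was 0.76, 0.69 and 0.77 (adjusted 0.104, 0.143 and 0.0995). By rho, no pair had an adjusted permutation p under 0.05 within a group. On scan day 1 r with Foxj1, Ccdc153, Tmem212 and Rsph1 was 0.56, 0.44, 0.43 and 0.48. On day 2 it was 0.87, 0.94, 0.94 and 0.98. The difference between days was not tested.

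Gas2l2 showed no such relation over the 16 animals in the processed signals centred within group. Its r with the mean of the other cilia genes was 0.02, at the 48.0th percentile of all genes, and its median r with single cilia genes was 0.00, positive for 16 of 29, with none over 0.5. With replicate number as a block, the r with the mean was 0.70. After normexp background correction it was also 0.70, at the 91.9th percentile of all genes. With normexp 33.3% of all genes had r over 0.5 with the cilia mean, and the Gas2l2 values had r = -0.94 with the brightness of the array. With Foxj1 it had r = 0.14 and rho = 0.11 (permutation p = 0.624 and 0.698), and with Ccdc153, Tmem212 and Rsph1 r was 0.15, 0.19 and 0.00 (permutation p = 0.652, 0.554 and 0.991; rho 0.10, 0.19 and 0.04). Adjusted p lay between 0.745 and 0.991 for these 4 pairs, and without the 2 farthest animals r was between -0.37 and -0.15. The pooled value joins scan days of opposite sign: against Foxj1 r was -0.40 on day 1 and 0.75 on day 2, each over 8 animals, and against the mean of the 29 genes -0.45 and 0.72. With 16 animals and a low signal, a p that misses the threshold does not show that Gas2l2 is unrelated to the cilia genes.

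**Figure D4:**
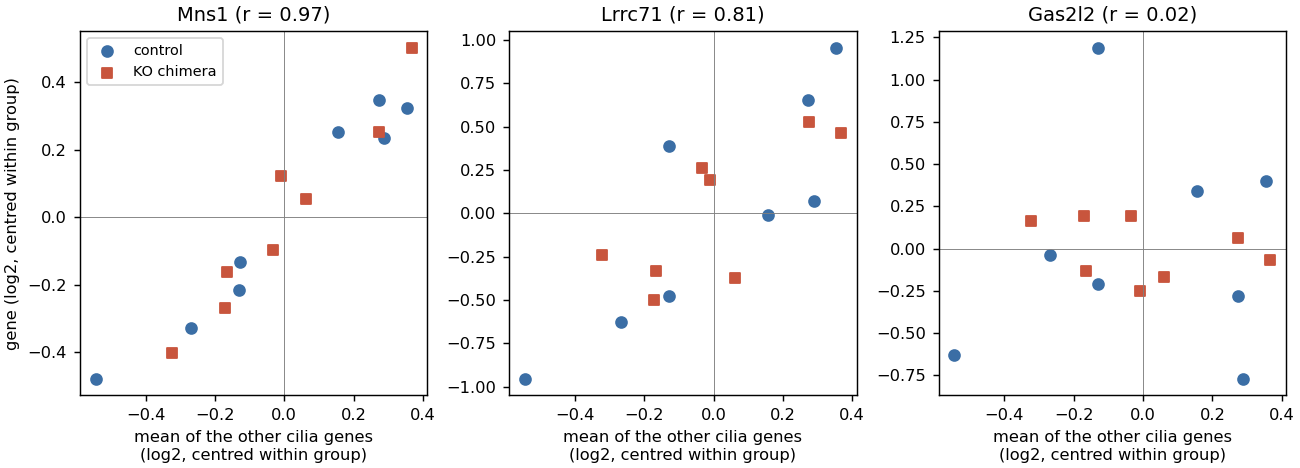
Mns1, Lrrc71 and Gas2l2 (log2, centred within each group) against the mean of the other cilia genes in 8 controls (circles) and 8 KO chimeras (squares). Mns1 and Lrrc71 rise along the mean (r = 0.97 and 0.81), whereas Gas2l2 shows no slope over the 16 animals (r = 0.02).

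In a model with the group and the mean of the 29 genes, the group term of Lrrc71 was 0.34 ± 0.20 (SE) in place of 0.95 ± 0.25, with a slope of 1.60 ± 0.32 on the cilia mean. The group term of Gas2l2 stayed at 0.86 ± 0.30 against 0.88 ± 0.22, with a slope of 0.03 ± 0.46. Within the slides with both groups the difference of Lrrc71 was 0.39, 1.40, 0.19, 1.08 and 1.03, and that of Gas2l2 0.61, 1.00, -0.48, 1.10 and 1.14. The slide on which Gas2l2 was lower in the KO chimera held control replicate 8, its highest animal.

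Outside the list, genes of other parts of the axoneme were mostly higher in KO chimeras too, though few passed the test. Over all genes tested 1.03% were called higher and 2.77% lower, so 1 call in a list is not read as a result about that list. Of 13 measured dynein arm genes 11 had the higher mean in KO chimeras (median difference 0.49) and 0 were called in either direction; Dnah9 and Dnah5, outer arm heavy chains, differed by 0.50 and 0.54, and Dnah1, an inner arm heavy chain, by 0.32. Of 14 central pair genes 12 were higher (median difference 0.37) and 1, Cfap70, rose (0.64 ± 0.15, SE; limma adjusted p = 0.0326). Of 26 doublet, spoke and nexin link genes 19 were higher (median difference 0.20) and 1, Efcab1, rose (0.52 ± 0.11; limma adjusted p = 0.0211). Of 11 dynein assembly genes 9 were higher (median difference 0.13) and 0 were called, and Daw1, which takes part in outer arm transport, differed by 0.85 ± 0.24 (limma adjusted p = 0.0608). Of 27 regulators of multiciliation and other cilia genes 22 were higher (median difference 0.21) and 1, Ttc25, an outer arm docking protein, rose (0.66 ± 0.17; limma adjusted p = 0.0403).

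The primary cilium, which neurons and glia also carry, shares intraflagellar transport with the motile cilium. Of 42 measured genes of these processes, 29 had the higher mean (median difference 0.08) and 0 were called higher. Kifap3, a subunit of the kinesin-2 motor, was the 1 gene that fell, by 0.21 ± 0.05 (SE, limma adjusted p = 0.0430). Over all genes tested 2.77% were called lower, so 1 call among 42 is not read as a result about these genes. The mean of the 42 genes had r = 0.73 with the mean of the 29 cilia genes across animals. The means of the other lists had r = 0.96 for the dynein arms, 0.93 for the central pair, 0.89 for dynein assembly and 0.88 for the doublet list. Single genes were less uniform than these list means. Their median r was 0.34 among the 42, 0.74 for dynein arms, 0.78 for the central pair, 0.50 for dynein assembly and 0.56 for the doublet list.

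Whether the cilia genes went with ependymal cells was read from genes that are not part of the axoneme. The mean of 16 genes of this kind listed for ependymal cells had r = 0.92 with the cilia mean. The single genes were uneven, with r from -0.44 to 0.97, and 10 of the 16 had r over 0.5 against 7.52% of all genes. Of the 16, 14 had the higher mean in KO chimeras (median difference 0.23). Only Nnat was called (0.31 ± 0.09, SE, limma adjusted p = 0.0498), while itself having r = -0.24. Beside this call and those below, 1.03% of all genes tested were called higher and 2.77% lower. The mean of 22 genes of tanycytes, which share the third ventricle wall, had r = 0.01 with the cilia mean; 9 of 22 were higher and 1, Dio2, the thyroxine deiodinase of tanycytes, fell by 0.76 ± 0.17 (limma adjusted p = 0.0265). The tanycyte genes next by p had the higher mean in KO chimeras without passing, Col23a1 by 0.87 ± 0.30 and Gpr50 by 1.11 ± 0.39 (limma adjusted p = 0.105 and 0.118), and Rax, their defining factor, differed by 0.49 ± 0.42. The mean of 16 choroid plexus genes had r = 0.20 and differed by 0.01 between groups, its range being -0.48 to 1.13 in controls and -0.34 to 1.12 in KO chimeras; their defining markers Ttr and Kl had r = 0.09 and -0.07, and the highest r in the list were 0.89 for Calml4 and 0.43 for Folr1. The mean of 12 meningeal genes had r = -0.16, with 11 of the 12 higher in KO chimeras (median difference 0.20) and 0 called in either direction.

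**Figure D5:**
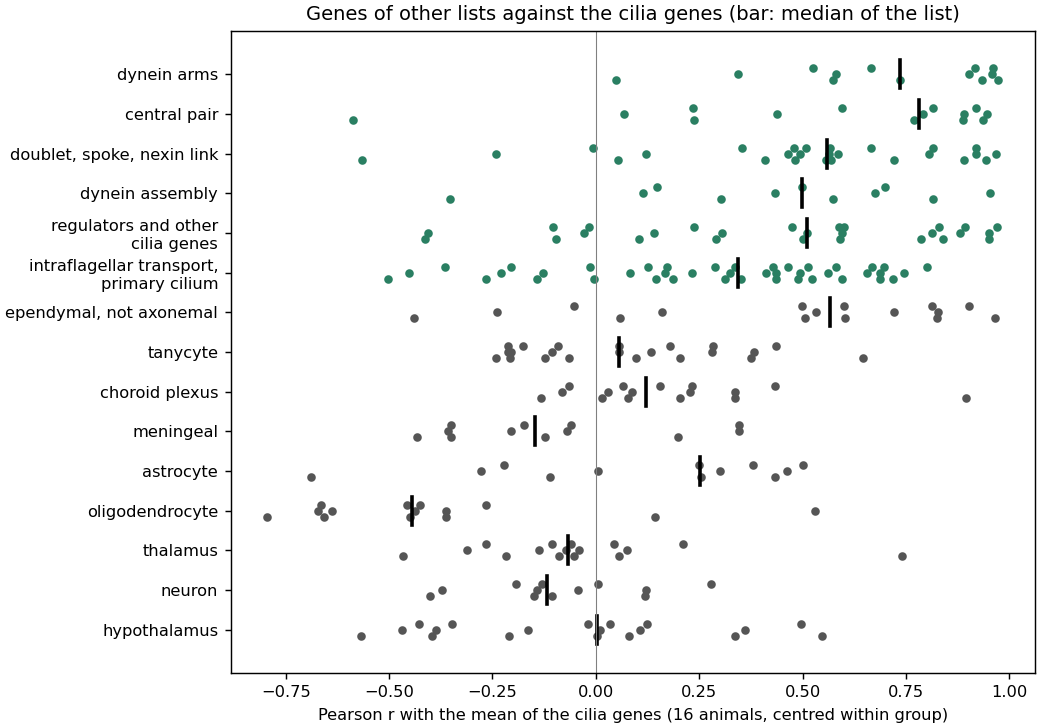
Pearson r of each gene of 15 other lists with the mean of the 29 cilia genes across 16 animals centred within group; black bars are list medians, green points are cilia and cilium lists. Medians run from 0.34 to 0.78 in the cilia and cilium lists and lie at 0.57 for ependymal genes outside the axoneme, 0.06 for tanycytes and -0.44 for oligodendrocytes.

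The mean of 14 oligodendrocyte genes moved opposite to the cilia genes, with r = -0.57 with the cilia mean within groups. Single genes were uneven, with r from -0.79 to 0.53. Of the 14, 12 were lower in KO chimeras and 5 fell, where 2.77% of all genes tested were called lower and 1.03% higher. Among the 5 were Mal (-0.66) and Mobp (-0.68 ± 0.13, SE, limma adjusted p = 0.0139), with r of -0.27 and -0.36. The 2 that were not lower were Mbp (difference 0.07, r = 0.53) and Ermn (difference 0.09, r = 0.14). The oligodendrocyte mean ran from -0.12 to 0.50 in controls and from -0.32 to 0.05 in KO chimeras. With this mean as a covariate, the median difference of the cilia genes was 0.081 in place of 0.40, while Gas2l2 differed by 0.92 and Lrrc71 by 0.34; 0 of the 31 were called in that fit, which called 0.0123% of all genes. The mean of 16 thalamic genes, 15 of them lower in KO chimeras and 2 called, differed more between the groups (-0.77, range -0.79 to 1.24 in controls and -1.26 to 0.29 in KO chimeras) but had r = -0.07 with the cilia mean; with it as a covariate the median difference was 0.37, and 0 of the 31 were called where 0.0287% of all genes were. Of 12 astrocyte genes 11 were lower and 2 fell, and of 12 neuronal genes 9 were lower and 1, Rbfox3, fell.

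The 10 genes outside the list whose pattern across animals was most like the cilia mean had r between 0.96 and 0.98. They were Lrrc36, Spaca9, Dnah10, Scnn1a, 1700012B09Rik, Cfap126, Fam166b, Mia, 1700094D03Rik and Fbxl13. Their differences lay between 0.28 (Scnn1a, a sodium channel subunit) and 0.69 (Dnah10, an inner arm heavy chain), and 0 of the 10 had an adjusted p under 0.05 in limma.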

How the data were processed

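Total RNA of 16 hypothalami was hybridised to 1-colour (Cy3) Agilent arrays, 1 animal per array. The deposited scanner files hold spot intensities which the submitters' processing notes credit to Agilent Feature Extraction 10.7: processed signals are background-subtracted within the array, per the file headers, and not scaled between arrays. The deposited value table holds a log2 value for each spot, with the normalization unstated. Over the brighter spots each column had r over 0.999 against the processed signals, and dim spots were left out of that r. The table has a floor of 2.2, at which 22.1% to 23.2% of the spots of a column lay.

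From the processed signals, control and outlier spots were left out, log2 values were reduced by each array's 75th percentile over non-control spots, replicate spots were averaged, a probe was kept if 8 or more of the 16 arrays had it well above background, and the probe with the highest mean stood for a gene. limma 3.58.1 (R 4.3.3) compared the groups over 24363 genes and p-values were adjusted by Benjamini-Hochberg (called under 0.05); probe names were updated through RefSeq accessions and symbols. Correlations used values centred within group, with 100000 permutations within groups. Scripts were tested on simulated data. The members and all gene lists were chosen with earlier results of these data known, and so were the rules for named genes: values per animal for 6 genes and for the 3 highest and 3 lowest differences (those of Zmynd10, Ccdc40 and Tekt1 were added after their values were seen), the 10 genes most like the cilia mean, from each list up to 3 genes by p, and the defining markers Rax, Ttr, Kl, Prkcd and Mobp; Calml4 and Folr1 were named after their values were seen. Values rest on 8 animals per group, whose number limits the precision. Alternatives changed the normalization, background, filter, probe, blocks, covariates and animals.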

Additional observations from a re-analysis of the deposited data

Results flagged for a closer look

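Each of the 31 genes, and the mean of the 29, was looked at in each group. In 6 of these 64 combinations 1 animal stood apart from the rest of its group by Dixon's criterion for 8 animals. Chance gives about 1 in 20 for a single combination. The genes vary together across the same animals, so the 6 are not separate events and their number was not tested against chance. In 5 of the 6 the animal was control replicate 6, low for Ccdc153 (0.47), Rarres2 (1.55), Tmem212 (-0.93), Dnali1 (-1.50) and Mlf1 (-2.43). The sixth was control replicate 5, low for Ak7 (-4.58). Without control replicate 6 the median difference of the cilia genes was 0.33 in place of 0.40. Then 2 of the 31 genes passed the threshold in place of 5, and 3.07% of all genes in place of 3.8%. The count was also 2 without control replicate 5 or 7, or without KO chimera replicate 2, 3, 4, 6 or 7, so it is not particular to control replicate 6.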

How the results depend on the processing

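Of the 5 genes called among 31, the number called was 3 with quantile normalization, the deposited value table, the mean of all probes of a gene or scan day as a fixed block, 2 with no filter on dim probes or the slide as a fixed block, 1 with normexp, and 0 within scan day 1, within scan day 2 or with the oligodendrocyte or thalamus list as a covariate. The share of all genes called fell as well, from 3.8% to 2.15%, 2.2%, 1.72%, 1.96% and 1.11% with quantile normalization, the deposited table, no filter, the slide block and normexp, and to 0%, 0.0287%, 0.0123% and 0.0287% in the last 4; it was 3.08% and 3.97% with the mean of probes and the scan day block. When all 16 arrays had to be above background, 4 of 26 tested cilia genes were called, and Lrrc71 and Gas2l2 were not tested there. The number called was 5 when arrays were weighted, 6 with the slide as a random block and 7 with trend and robust settings. Lrrc71 and Gas2l2 were among these each time. The share of all genes called was 6.79%, 5.15%, 5.25% and 5.06% in these 4 settings. Leaving out each animal in turn gave 2 to 4 cilia genes, with 1.48% to 4.22% of all genes called. Ccdc40 and Zmynd10 were called in all 16 of these fits, Gas2l2 in 5, Lrrc71 in 3 and Tekt1 in 3. Over all 35 alternatives Ccdc40 was called in 29 and Zmynd10 in 31. Ccdc40 was not called with the mean of all probes of a gene (limma adjusted p = 0.135) or with normexp (limma adjusted p = 0.0674), among others. The median difference was 0.33 to 0.48 with each animal left out and 0.081 with the oligodendrocyte covariate, which also left Lrrc71 at 0.34; both covariates, the array's 75th percentile as a covariate and leaving out both arrays of slide 4 were chosen after seeing the data. Subtracting the array's median in place of the 75th percentile moved all genes by -0.13, called 17.1% of them and 7 of the 31, with Spef2 lower, and 4.27% of calls were then higher against 27.0%; with normexp it was 9.96% and with no filter 40.7%. The differences of the 31 genes against the shifted median of all genes stayed the same, as the shift is the same for every gene.

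Lrrc71 had r with the other cilia genes of 0.61 within scan day 1 and 0.96 within day 2, and 0.74 to 0.87 with each animal left out. Gas2l2 had r = -0.45 and 0.72 within those days, and -0.26 to 0.19 with each animal left out; its r was 0.70 with normexp, where its difference was 0.25 (in the processed signals its r with the array's 75th percentile was 0.12). Replicate numbers were shared by the groups. Same-numbered animals had correlations of -0.07 to 0.24, and 3 of 8 correlated best with their own number. These values do not settle whether the numbers pair the animals, and the main fit did not pair them. With the replicate block 5 cilia genes and 3.25% of all genes were called. Mns1 and Spag16 were among the 5 but Lrrc71 and Gas2l2 were not, and r was 0.92 for Lrrc71 and 0.70 for Gas2l2. For the other values the cause of a change was not tested. Low signal limits Spag17, Lrriq1, Spag16 and Gas2l2 most.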
